A study of Danio rerio with 8 samples.

Results

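The shutoff genes considered here are the arrestins, opsin kinases, the transducin regulator rgs9a and the phosducin pdca, which end or restrain the light response of rods and cones. They were taken as every probe set of the array whose annotated gene symbol was arr3a, arr3b, saga, sagb, grk1a, grk1b, grk7a, grk7b, rgs9a or pdca. Of these 10 genes 2 were found, pdca with 3 probe sets and rgs9a with 1, so 4 of the 15502 probe sets tested belong to them. No annotated probe set named the 4 arrestins and 4 opsin kinases, which are not analysed here. The results below therefore concern the regulation of the G protein transducin and not the shutoff of the opsins themselves.

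The samples were whole retinas of albino zebrafish (Danio rerio) in 2 groups, measured on 8 Affymetrix arrays. In the light lesion group (4 arrays) fish were adapted to darkness and then kept for 72 h in constant bright light, which damages photoreceptors. In the control group (4 arrays) fish, likewise albino, were also adapted to darkness and then went back to ordinary lighting, so both groups carry the albino background and had the dark period. Only the light lesion fish had constant light, so effects of the light and of the lesion cannot be told apart.

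When light activates an opsin, the opsin switches on transducin, and transducin switches on the phosphodiesterase that lowers cyclic GMP. Shutoff takes place at both upper steps: opsin kinases phosphorylate the active opsin and arrestins cap it, while RGS9, held in a complex with the G protein subunit Gβ5 and a membrane anchor, speeds the hydrolysis of GTP by the transducin alpha subunit. Phosducin binds the beta and gamma subunits of transducin and limits their return to the alpha subunit.

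Levels are given as the deposited log2 RMA values, so a difference of 1 is a doubling. Levels of different probe sets are not compared as amounts of transcript, since each has its own probes. A probe set was called changed at an adjusted p under 0.05 in limma with Benjamini-Hochberg adjustment over all probe sets. Over the whole array 40.2% of probe sets were called, 20.7% as lower and 19.5% as higher after the light lesion. The groups did not overlap for 40.0% of probe sets. Array medians ran from 7.63 to 7.67 in light lesion arrays and from 7.63 to 7.69 in controls. Correlations between arrays were at least 0.991 within the light lesion group, at least 0.992 within controls, and between 0.958 and 0.968 across the groups. On the GAPDH control probe sets, which track RNA integrity and labelling, the 3′ minus 5′ difference ran from 0.158 to 0.285 on the log2 scale in light lesion arrays and from 0.0297 to 0.0774 in controls. Its part in the changes below was not tested.

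Both measured shutoff genes were lower after the light lesion. All 4 of their probe sets, 3 of them of pdca, were called lower and none higher, against the 20.7% called lower over the array. In all 4 the highest light lesion array lay under the lowest control, where the groups did not overlap for 40.0% of probe sets over the array. In light lesion retinas pdca stood at 22.0%, 29.4% and 48.5% of its control level at its brightest, second and dimmest probe sets, and rgs9a at 62.8%. At the first 2 pdca probe sets the log2 fall was larger than at the rgs9a probe set. The exact permutation p was 0.0286 at each, the smallest 4 against 4 arrays can give. The difference did not pass at the dimmest (exact permutation p = 0.0571). The second and the dimmest were tried after the data were seen, and a difference between the genes themselves was not tested. In whole-retina RNA, fewer photoreceptors and less transcript per photoreceptor cannot be told apart.

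Phosducin, pdca, was read first from its brightest probe set. It had 10.75, 10.58, 11.24 and 11.09 in light lesion replicates 1 to 4, against 13.15, 13.02, 13.12 and 13.11 in control replicates 1 to 4. The controls lay within a narrow band, the light lesion arrays spread more widely, and a gap of 1.78 separated the groups. The mean was 10.92 ± 0.31 after the lesion and 13.10 ± 0.06 in controls (SD, n = 4 each), a level 4.55-fold lower in lesioned retinas (log2 fold change -2.19, SE 0.13, adjusted p = 1.86e-06 by limma). Ordered by log2 fold change from the most negative, this probe set was number 24 of 15502.

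The other probe sets of pdca fell as well, by less. The second in brightness had 10.43, 10.65, 10.80 and 10.56 in light lesion replicates 1 to 4, against 12.50, 12.36, 12.33 and 12.32 in control replicates 1 to 4. Here too the groups were far apart, with a gap of 1.52 and a level 3.40-fold lower in lesioned retinas (log2 fold change -1.77, SE 0.08, adjusted p = 3.92e-07 by limma). The dimmest of them had 9.18, 9.15, 9.57 and 9.20 in light lesion replicates 1 to 4, against 10.54, 10.16, 10.32 and 10.26 in control replicates 1 to 4. Its groups were separated by only 0.58, and its level was 2.06-fold lower in lesioned retinas (log2 fold change -1.04, SE 0.11, adjusted p = 6.06e-05 by limma). Its 95% interval, -1.29 to -0.80, did not overlap those of the brighter ones, -2.48 to -1.89 and -1.95 to -1.59. The size of the pdca fall thus depended on the probe set, from 2.06-fold to 4.55-fold, while its direction did not. Light lesion replicate 3 was the highest light lesion array at all 3 probe sets, and control replicate 1 the highest control.

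The GTPase activator rgs9a was read by 1 probe set. The RefSeq gene table lists wipi1 among the synonyms of rgs9a, and the probe sequences were not used here, so the naming of this probe set rests on the array annotation. It had 10.34, 10.22, 10.36 and 9.81 in light lesion replicates 1 to 4, against 11.02, 10.88, 10.74 and 10.76 in control replicates 1 to 4. Light lesion replicate 4 was the lowest, the other light lesion arrays lay close together, and the gap to the controls was 0.39. The mean was 10.18 ± 0.25 after the lesion and 10.85 ± 0.13 in controls (SD, n = 4 each), a 1.59-fold lower level (log2 fold change -0.67, SE 0.12, adjusted p = 0.00164 by limma). It was number 663 in the order by log2 fold change.

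**Figure D1:**
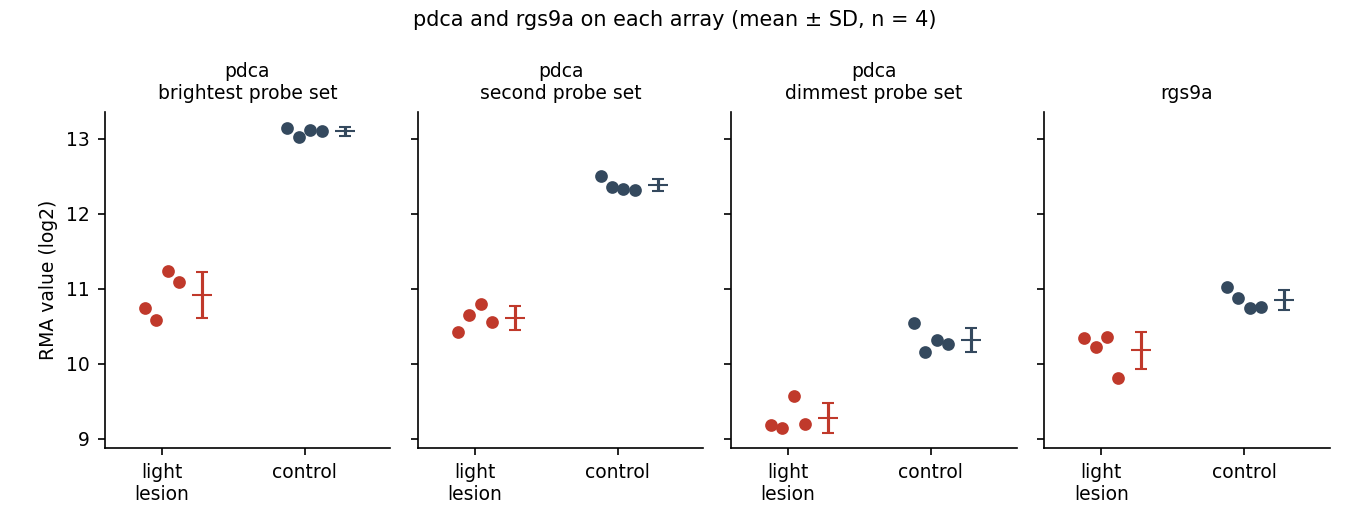
RMA values on the log2 scale (vertical axis) of the 3 probe sets of pdca and the probe set of rgs9a, with a point for each array and the mean ± SD (n = 4) beside the points of the light lesion and control groups. In all 4 panels every light lesion array lies below every control, by a gap of 1.78 at the brightest pdca probe set and of 0.39 for rgs9a.

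At its brightest probe set pdca fell more than rgs9a on the log2 scale. The value of pdca minus that of rgs9a, taken on each array at the brightest probe sets, was 1.51 lower after the lesion, with SDs of 0.43 over light lesion arrays and 0.13 over controls. An exact two-sided permutation test over the 70 assignments of the 8 arrays gave p = 0.0286, the smallest 4 against 4 arrays can give. Adjustment over 2 pairs could not raise this p, since the other pair, pdca minus pdcb, gave the same value. That other pair was chosen after the values were seen. Tests with the other pdca probe sets were not part of that adjustment. With the second pdca probe set the difference was -1.10 (exact permutation p = 0.0286), but with the dimmest it was -0.37 and did not pass (exact permutation p = 0.0571). The test covers the spread between arrays and not differences in how probe sets respond, and rgs9a had only 1 probe set. A difference between the genes themselves was therefore not tested. None of the planned comparisons between rod and cone arrestins or between opsin kinases could be made.

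Most of the measured shutoff partners were called lower too. The list of partners holds relatives of phosducin and RGS9, genes of the RGS9 complex, recoverins and calmodulins. Of its 17 genes 9 were measured. Read at their brightest probe sets, 6 fell, none rose and 3 did not pass, with a median log2 fold change of -0.29. Over all 8793 genes 20.1% were called lower and 24.4% higher, with a median of -0.03. The 6 were the second phosducin pdcb, the RGS9 anchor rgs9bp, the Gβ5 gene gnb5b, the calmodulins calm3a and calm3b, and the second RGS9 gene rgs9b. Of these rgs9b was dim in both groups, and calmodulins act in many cell types.

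The second phosducin gene, pdcb, had 12.56, 12.66, 12.86 and 12.76 in light lesion replicates 1 to 4, against 13.78, 13.65, 13.65 and 13.69 in control replicates 1 to 4. The groups were 0.79 apart, and the level was 1.98-fold lower in lesioned retinas (log2 fold change -0.99, SE 0.07, adjusted p = 4.93e-06 by limma). RefSeq gives pdcr as a synonym of pdca and pdcc as one of pdcb. At the brightest probe sets the fall of pdca exceeded that of pdcb by 1.20 on the log2 scale (pdca minus pdcb lower by 1.20 after the lesion, SDs 0.21 over light lesion arrays and 0.05 over controls, exact permutation p = 0.0286). This pair was chosen after the values were seen. With the second pdca probe set the difference was -0.78 (exact permutation p = 0.0286). With the dimmest it was -0.06 (exact permutation p = 0.514). The size of the difference thus depended on the pdca probe set. The test does not cover differences in how probe sets respond, so a difference between pdca and pdcb themselves was not tested.

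Measured genes of the RGS9 complex were all called lower, where 20.1% of all genes were, though not all were well above the dim level. The Gβ5 gene gnb5b, whose product stabilises RGS9, had 11.39, 11.47, 11.54 and 11.29 in light lesion replicates 1 to 4, against 11.96, 11.96, 11.94 and 12.02 in control replicates 1 to 4. The groups were as far apart as for rgs9a, by 0.39, and the fall was 1.46-fold (log2 fold change -0.54, SE 0.06, adjusted p = 8.10e-05 by limma). Gβ5 also pairs with RGS proteins of other retinal neurons. The anchor gene rgs9bp had 5.85, 5.75, 5.85 and 5.85 in light lesion replicates 1 to 4, against 6.98, 6.81, 6.70 and 6.73 in control replicates 1 to 4. Its log2 fold change was -0.98 (SE 0.07, adjusted p = 4.12e-06 by limma). All its light lesion values lay under 6.67, the level below which the dimmest 25% of probe sets lie. Its controls, 6.70 to 6.98, lay only slightly above that level, so the size of its fall is uncertain and may be understated. The second RGS9 gene, rgs9b, was dim in both groups, at 5.92 ± 0.03 after the lesion and 6.10 ± 0.04 in controls (SD, n = 4 each), and its call as lower, by 0.18 on the log2 scale (adjusted p = 0.00869 by limma), says little about its transcript.

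The recoverins are calcium-binding proteins that, in mammals, hold the opsin kinase in check in the dark. None of their probe sets was called lower, where 20.7% of probe sets over the array were. So few probe sets do not set the recoverins apart. The brightest probe set of rcvrn2 had 12.31, 12.11, 12.28 and 11.98 in light lesion replicates 1 to 4, against 12.30, 12.24, 12.17 and 12.15 in control replicates 1 to 4. These groups overlapped throughout (log2 fold change -0.04, 95% interval -0.22 to 0.13, adjusted p = 0.684 by limma). A dimmer probe set of rcvrn2 was called higher, with a log2 fold change of 0.70 (SE 0.22, adjusted p = 0.0305 by limma), and 11.42 in light lesion replicate 3 against 10.21 to 10.58 in the other light lesion arrays. Without light lesion replicate 3 its difference was 0.45 (adjusted p = 0.00864 by limma), and without control replicate 2, 3 or 4 the call was lost (adjusted p of 0.0586, 0.0747 and 0.0780). For rcvrn3 the difference was 0.27 (95% interval 0.03 to 0.52, adjusted p = 0.0746 by limma) and the groups overlapped. It was called higher without light lesion replicate 1 (0.36, adjusted p = 0.0150 by limma) and without control replicate 1 (0.35, adjusted p = 0.0302).

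Calmodulin, a calcium sensor of many cell types, was lower at calm3a (-0.63, adjusted p = 0.000980 by limma) and calm3b (-0.29, adjusted p = 0.00813 by limma). The phosducin-like gene pdcl3 was not called at its brightest probe set (0.12, adjusted p = 0.338 by limma) and was called lower at the other (-0.20, adjusted p = 0.0438 by limma), where the groups were only 0.01 apart and the call was lost without any 1 of 7 of the 8 arrays (adjusted p from 0.0518 to 0.106).

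**Figure D2:**
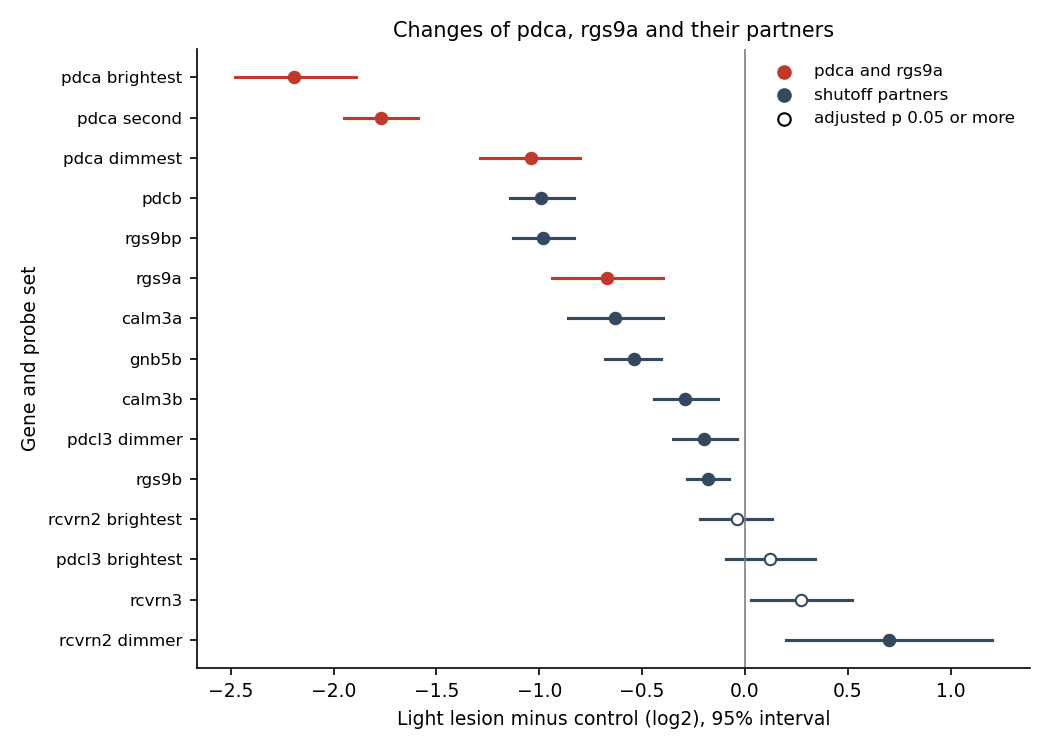
Light lesion minus control difference on the log2 scale (horizontal axis) with its 95% interval for each probe set of pdca and rgs9a (red) and of the shutoff partners (dark), with open points where the adjusted p was 0.05 or more. The pdca probe sets lie furthest left, at -2.19, -1.77 and -1.04, rgs9a lies at -0.67 between rgs9bp and calm3a, and the recoverins lie at -0.04, 0.27 and 0.70.

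Other photoreceptor genes of the light response and the outer segment give a scale for these falls. The rod list holds transducin, phosphodiesterase and channel genes, the cyclase and its activator that restore cyclic GMP, and structural genes of the disc rim. Of its 12 measured genes all 12 fell, where 20.1% of all genes were called lower. The lists were chosen with earlier results of these data known, so this count is a description. The median log2 fold change of the rod list was -1.63, against -0.03 over all genes, and its range ran from -3.26 to -0.89. The fall of pdca at its brightest probe set, -2.19, was exceeded by 4 of the 12. It lay between those of gnb1b (-2.22) and gnat1 (-1.82), which encode a beta and the rod alpha subunit of transducin. At the second and the dimmest pdca probe sets 5 and 10 of the 12 fell more. The fall of rgs9a was smaller than that of any of the 12. Whether the listed genes are expressed in rods alone was not tested. The rod genes with the largest falls were the guanylate cyclase gucy2f (-3.26), which may also be read as a cone gene, the phosphodiesterase subunit pde6a (-3.24) and the cyclase activator guca1b (-2.76).

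Of 16 measured cone genes 12 fell, 2 rose and 2 did not pass, with a median of -0.39. These shares were 75.0% lower and 12.5% higher, against 20.1% and 24.4% of all genes, whose median was -0.03. The call of the ultraviolet opsin opn1sw1 (-0.18) was lost without light lesion replicate 1 or 4 or control replicate 2 or 4 (adjusted p from 0.0522 to 0.0620). The fall of pdca at its brightest and second probe sets was larger than that of any of the 16. The nearest were the green opsin opn1mw4 (-1.71), the guanylate cyclase gucy2d (-1.18) and the green opsin opn1mw2 (-1.09). This position depends on the listing, since gucy2f (-3.26), which may also be read as a cone gene, stood on the rod list. At the dimmest pdca probe set 3 cone genes fell more. The fall of rgs9a was exceeded by 6 of them. Those that rose were the cyclase activator guca1aa (0.93) and the transducin subunit gngt2a (0.34). These positions are descriptions, since differences between pdca or rgs9a and the single rod and cone genes were not tested. Several cone probe sets read high in controls, such as pde6ha (mean 14.59) and pde6hb (14.50). The rod gene gnat1 (14.49) did as well, while the cone gene gucy2d (10.98) did not. Whether an upper limit of the array narrowed log2 falls at such levels was not tested.

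Relatives of the shutoff genes that act in many cell types were called lower at a share near that of all genes. Of 13 measured arrestin, G protein-coupled receptor kinase and RGS genes outside the photoreceptor set 3 fell, 1 rose and 9 did not pass, with a median of -0.05. These shares were 23.1% lower and 7.69% higher, against 20.1% and 24.4% of all genes. The vascular RGS gene rgs5a (-1.36), the arrestin-domain gene arrdc3a (-0.50) and the beta-arrestin arrb2b (-0.44) fell, and rgs12a (0.36) was called higher. Of the 13 genes 4 were dim in both groups, rgs12a among them, so that this call and the lack of calls at the other dim genes say little about their transcripts.

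**Figure D3:**
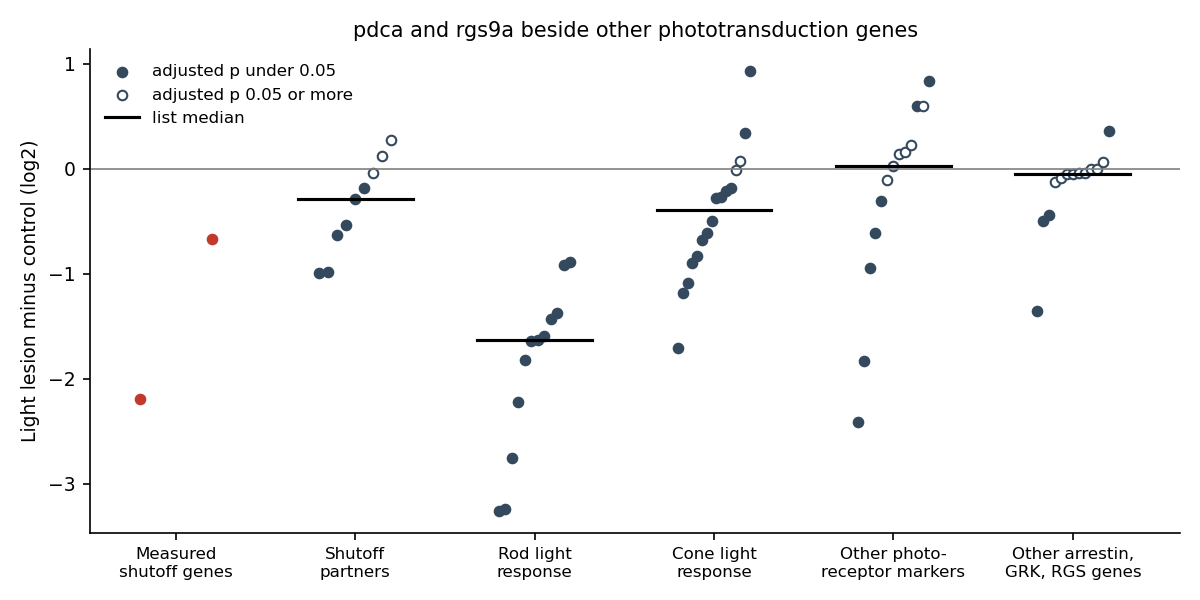
Light lesion minus control difference on the log2 scale (vertical axis) of each gene at its brightest probe set, for pdca and rgs9a (red), their partners and 4 lists of related genes, with open points where the adjusted p was 0.05 or more and a bar at each list's median. The point for pdca, at -2.19, lies within the range of the rod list and below every gene of the cone list. That for rgs9a, at -0.67, lies above every gene of the rod list and within the range of the cone list.

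Photoreceptor markers outside the light response were also read, 13 of them measured and none dim in both groups. Their mean over the list ran from 10.85 to 10.98 in light lesion arrays and from 11.15 to 11.21 in controls. Of these markers 5 fell, 2 rose and 6 did not pass (median 0.03). Over all genes 20.1% were called lower and 24.4% higher. The largest falls were those of rx1 (-2.41), rx2 (-1.83) and elovl4b (-0.95), and those that rose were otx5 (0.84) and nr2e3 (0.60). The bearing of these markers on the falls of pdca and rgs9a was not tested.

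Markers of several other cell types moved with the groups. Over all genes 24.4% were called higher and 20.1% lower. All 10 measured microglia and leukocyte markers rose, with list means of 9.37 to 9.64 in light lesion arrays and 8.66 to 8.72 in controls. The rise of 1 of them, spi1b (0.16), lost its call in 6 omissions of 1 array (adjusted p up to 0.130). Of 7 pigment epithelium markers 5 rose and none fell, with list means of 11.82 to 12.05 in light lesion arrays and 10.81 to 10.89 in controls. Of 9 Müller glia markers 3 rose, fabp7a (2.23), vim (0.94) and gfap (0.93), and 2 fell, cahz (-0.64) and glula (-0.21). These shares were near those over all genes, and the median of the 9 markers was -0.03. Their list means were 11.21 to 11.27 in light lesion arrays and 10.86 to 10.95 in controls. Of 11 bipolar and amacrine cell markers 7 fell and 1, ptf1a (0.21), was called higher, a call lost in 6 omissions of 1 array (adjusted p up to 0.112), with list means of 10.03 to 10.38 in light lesion arrays and 10.58 to 10.68 in controls. One marker of Müller glia and 1 of pigment epithelium were dim in both groups. The part of these shifts in the values of pdca and rgs9a was not tested.

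Genes whose profile was most like that of each shutoff gene were found by the root mean square distance, over the 8 arrays, between log2 values after each probe set's mean was subtracted, among 8791 other genes. Nearest to pdca were unc119.2 (distance 0.123, log2 fold change -2.14) and zgc:77752 (distance 0.199, log2 fold change -1.89). Nearest to rgs9a were lmo4b (distance 0.0641, log2 fold change -0.65), which encodes a LIM-only transcription cofactor, and srpk1a (distance 0.0716, log2 fold change -0.62), which encodes a kinase of splicing factors. These distances include the difference between the groups, and nearness says nothing of shared function.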

How the data were processed

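The authors deposited log2 values for each probe set, which the submitters' processing notes say came from RMA. The version and software of RMA are not stated there, and base 2 was inferred from how far the values extend. Titles of the samples gave the groups and the replicate numbers. Whether replicates were separate fish or pools is not stated, so p-values measure the spread between samples that may be technical repeats. The number of arrays, 8, limits the precision.

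Of 15617 probe sets 115 AFFX controls were left out, leaving 15502. The annotation gave 1 gene symbol for 10795 of them, several for 135 and none for 4572, and the last 2 kinds were left unnamed. Where a gene had several probe sets, that of highest mean stood for it (8793 genes). No genome build is named, so no coordinates are given.

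The main test was limma 3.58.1 in R 4.3.3, with lmFit and eBayes, two-sided, without covariates, and adjusted over all probe sets. The steps were tested on simulated data. Differences between genes used an exact permutation test. The alternatives were the replicate number as a block, another variance prior, array weights, a threshold of 0.01, quantile normalization repeated on the deposited values, centring on medians, a filter on dim probe sets, averaging of probe sets and the omission of each array. The dimmer pdca probe sets were tried in the differences between genes after the data were seen. Named were every member and partner, and the 2 genes of nearest profile. Of the phototransduction, relatives and photoreceptor marker lists up to 3 falls and 2 rises were named, and of the Müller glia markers every call. The genes gnb1b and gnat1 were named after their values were seen. Members and lists were chosen with earlier results of these data known. Same-numbered arrays deviated together for 2 of the 4 numbers only, so the numbers were not taken as pairs.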

Additional observations from a re-analysis of the deposited data

Results flagged for a closer look

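In 30 groups of 4 arrays, those of the probe sets of pdca, rgs9a and their partners, 3 held an array far from its group, where chance gives about 1 in 20. At the dimmest probe set of pdca, light lesion replicate 3 stood at 9.57, with the next at 9.20. At rgs9bp, light lesion replicate 2 stood at 5.75, with the next at 5.85, in a range where the probe set was dim. At calm3a, control replicate 4 stood at 12.31, with the next at 12.16.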

How the results depend on the processing

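The 4 calls of pdca and rgs9a as lower held under the replicate block, the second quantile normalization, median centring, the filter on dim probe sets, the other variance prior, array weights, the threshold of 0.01 and the omission of each array. With the replicate block the adjusted p of rgs9a was 0.00196 and 5638 probe sets were called in all, against 6232 without it. Correlations of the deviations of same-numbered arrays from their group means ran from -0.236 to 0.277 over the 4 numbers, and no light lesion array correlated best with its own number. Over omissions of 1 array the log2 fold change ran from -2.29 to -2.07 for the brightest pdca probe set and from -0.73 to -0.55 for rgs9a. Averaging the probe sets of a gene gave 4014 genes called and 2 called lower among the shutoff genes, because genes and not probe sets were counted. The averaged pdca fall was -1.66 (adjusted p = 6.19e-07 by limma), and the broadly expressed relatives then had 2 genes higher in place of 1 and 4 lower in place of 3. The photoreceptor markers had 3 higher in place of 2, and their median was -0.07 in place of 0.03. Over omissions of 1 array pdca minus rgs9a ran from -1.70 to -1.39 and pdca minus pdcb from -1.26 to -1.10, where 3 against 4 arrays cannot give an exact permutation p under 0.0571. With the dimmest pdca probe set, the difference of pdca minus rgs9a was -0.37 and that of pdca minus pdcb was -0.057, and neither passed (exact permutation p = 0.0571 and 0.514), and the cause was not tested. After averaging they were -0.99 and -0.68 (exact permutation p = 0.0286 for both). Over the whole array the median change was -0.042 on the log2 scale, -0.028 after the second quantile normalization and -0.035 after median centring.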
